A study of Mus musculus with 12 samples.

Results

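Salt transport in the thick ascending limb of the loop of Henle and in the distal convoluted tubule was described from 10 genes, Umod, Slc12a1, Kcnj1, Cldn10, Cldn16, Slc12a3, Wnk1, Wnk4, Stk39 and Egf. They were taken by symbol from a table of 19261 genes measured by RNA-seq in mouse kidney, and all 10 were found and tested. The 12 libraries form 4 groups of 3. Control mice were listed with neither agent. Mice of the AOS group were given alginate oligosaccharides, fragments of a polysaccharide of brown algae, at 10 mg/kg over 5 weeks. The busulfan group received a single dose of busulfan, an alkylating drug that crosslinks DNA, at 40 mg/kg. The busulfan plus AOS group had that dose and then AOS at 10 mg/kg over 5 weeks. The strain is written as IRC in the labels and no age is given. The labels enter "Cells" as the tissue, whereas the series title and the protocol name kidney. Whether each sample is another animal is not stated, and p-values therefore measure only the spread among these samples, which may be technical.

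The thick ascending limb reabsorbs salt without water. NKCC2, the product of Slc12a1 and the target of loop diuretics, brings sodium, potassium and chloride into the cell, and the potassium channel ROMK, from Kcnj1, returns potassium to the lumen so that NKCC2 can go on working. The distal convoluted tubule takes up sodium chloride through NCC, the product of Slc12a3 and the target of thiazides. Kinases of the WNK family act on SPAK, the product of Stk39, which phosphorylates and activates both cotransporters.

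Kidney markers were present in every library. The 15 proximal tubule markers summed to between 53621 and 82690 CPM, counts scaled by the library total. Library totals ran from 13875942 to 15329347 estimated reads, of which the 10 genes held between 0.414% in busulfan replicate 3 and 0.859% in busulfan plus AOS replicate 1. Busulfan replicate 3 also carried adrenal transcripts. The 13 adrenal markers summed to 11628 CPM there against 5.87 to 11.8 CPM in the other 11 libraries, where between 2 and 8 of the 13 were listed at 0. Star, a defining adrenal gene, stood at 3202 CPM there and at 2.83 to 4.97 CPM in the others. In busulfan plus AOS replicate 3 the 14 hepatocyte markers summed to 19190 CPM, against 29.0 to 384 CPM elsewhere. Adipose markers, 11 in number, reached sums of 521 CPM in replicate 2 and 959 CPM in replicate 3 of the busulfan group, with 33.4 to 96.9 CPM in the other libraries. Some average effects below are also given without busulfan replicate 3 and busulfan plus AOS replicate 3, and the part of the other tissues in the results was not tested.

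The stretches around the transcription starts are shown for Umod and Slc12a1, whose levels moved together, for Slc12a3, whose level did not move with theirs, and for the pair of starts of Cldn10, whose transcripts the table adds up. Each runs from 250 bases before the start to 50 bases after it, 5′ to 3′ on the gene's strand, from RefSeq on GRCm38.p6. Capitals mark CpG dinucleotides, the letters CG, which read the same on both strands.
Umod, chr7:119479213-119479512, minus strand: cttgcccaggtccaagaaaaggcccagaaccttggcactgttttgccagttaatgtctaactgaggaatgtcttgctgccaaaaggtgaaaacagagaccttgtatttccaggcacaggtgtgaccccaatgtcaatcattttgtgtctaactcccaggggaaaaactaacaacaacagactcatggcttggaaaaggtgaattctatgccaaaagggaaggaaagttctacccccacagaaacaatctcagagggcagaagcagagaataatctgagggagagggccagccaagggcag
Slc12a1, chr2:125152350-125152649, plus strand: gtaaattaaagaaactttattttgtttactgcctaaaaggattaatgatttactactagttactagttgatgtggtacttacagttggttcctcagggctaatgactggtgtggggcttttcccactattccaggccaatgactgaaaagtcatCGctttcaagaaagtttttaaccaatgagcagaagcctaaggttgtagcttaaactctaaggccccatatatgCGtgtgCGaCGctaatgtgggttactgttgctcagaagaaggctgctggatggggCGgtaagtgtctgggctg
Slc12a3, chr8:94328958-94329257, plus strand: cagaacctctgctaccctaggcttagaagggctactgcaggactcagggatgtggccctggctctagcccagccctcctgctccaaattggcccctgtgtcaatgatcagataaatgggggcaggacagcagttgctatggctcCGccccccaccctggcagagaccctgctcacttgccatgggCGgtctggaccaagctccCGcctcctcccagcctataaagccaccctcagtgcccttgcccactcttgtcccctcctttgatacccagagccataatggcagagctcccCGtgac
Cldn10 upstream start, chr14:118787621-118787920, plus strand: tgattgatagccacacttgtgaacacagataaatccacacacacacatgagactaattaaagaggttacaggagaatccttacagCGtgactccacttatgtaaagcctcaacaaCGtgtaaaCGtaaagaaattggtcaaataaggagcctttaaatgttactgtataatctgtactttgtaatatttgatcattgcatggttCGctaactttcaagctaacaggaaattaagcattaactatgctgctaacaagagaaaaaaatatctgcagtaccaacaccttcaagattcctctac
Cldn10 downstream start, chr14:118854700-118854999, plus strand: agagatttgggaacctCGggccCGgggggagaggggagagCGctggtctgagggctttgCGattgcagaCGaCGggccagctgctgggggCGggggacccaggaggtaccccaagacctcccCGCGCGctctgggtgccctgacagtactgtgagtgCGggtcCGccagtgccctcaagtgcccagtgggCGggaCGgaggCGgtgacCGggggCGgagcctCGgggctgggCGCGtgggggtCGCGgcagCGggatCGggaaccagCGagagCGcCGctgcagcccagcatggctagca

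The letters CG are in 94.6% of 32851 promoter windows of this length, with a median of 7 per window. The window of Umod held 0, that of Slc12a1 held 5 and that of Slc12a3 held 4. The kinase genes held more, with 32 for Wnk1, 21 for Wnk4 and 49 for Stk39. The windows also differed in base composition. GC content was 47.3% for Umod, 42.7% for Slc12a1 and 60.3% for Slc12a3, and reached 80.0% for Stk39. For Cldn10 it was 36.0% with 4 CpG dinucleotides at the upstream start and 72.0% with 27 at the downstream start. Alternative first exons are known to give claudin-10a, an anion pore of the proximal tubule, and claudin-10b, a cation pore of the thick limb. The gene counts do not separate them.

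Levels are given as FPKM, reads scaled to transcript length and library size as the authors deposited them, which allows comparison between genes. By mean FPKM the order was Umod, Egf, Cldn10, Slc12a1, Slc12a3, Kcnj1, Wnk1, Wnk4, Stk39 and Cldn16. Umod ranked 48 among all 19261 genes, Slc12a1 471, Slc12a3 613 and Cldn16 7604. Neighbours in this order kept it in 12 of 12 libraries, apart from Egf above Cldn10 in 10 and Slc12a1 above Slc12a3 in 7. The levels of both cotransporters therefore could not be ranked beyond their spread. The spread over libraries differed among the genes. The highest library exceeded the lowest by a ratio of 4.22 for Slc12a1 and 3.88 for Umod, but by 1.39 for Wnk1.

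**Figure D1:**
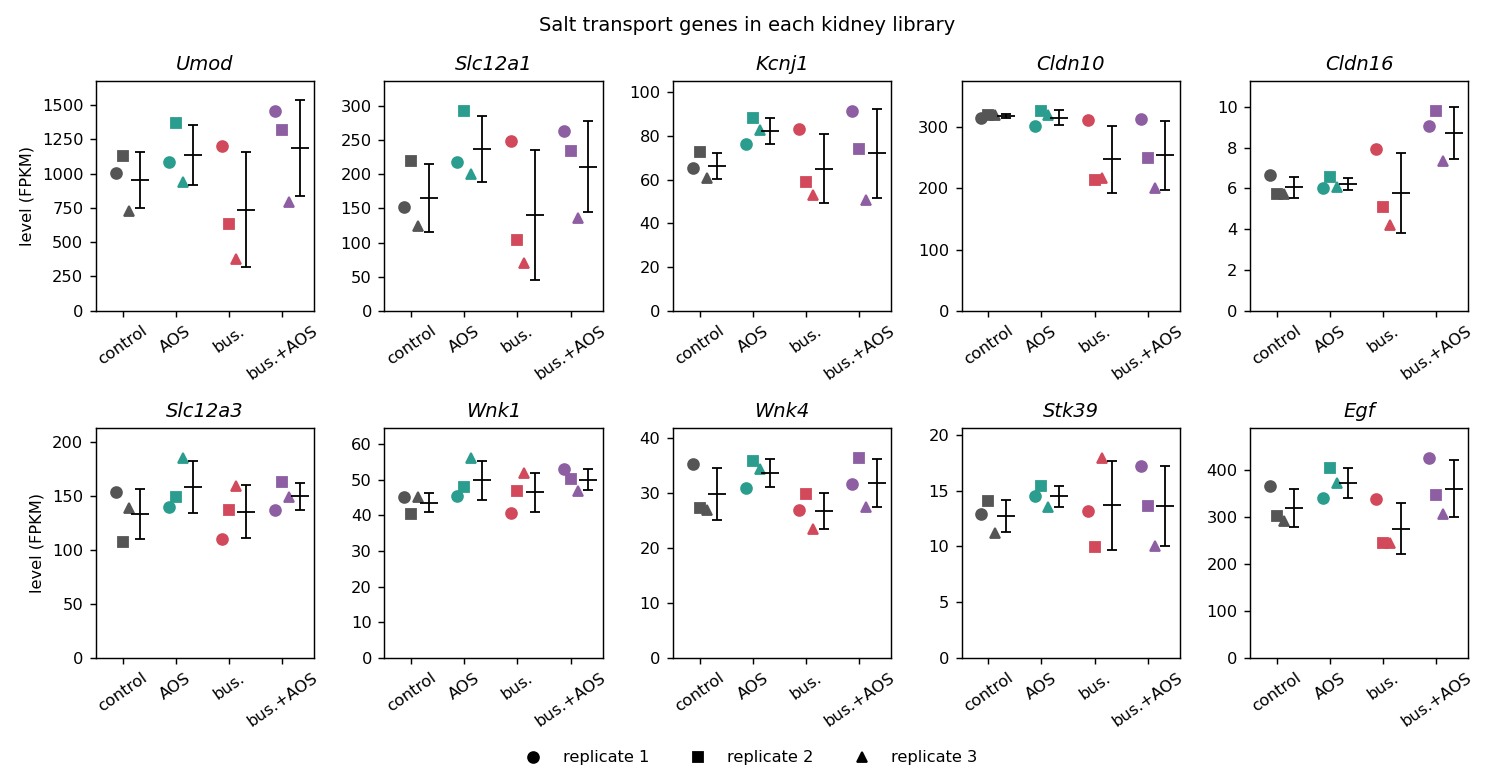
Level in FPKM (vertical axis, starting at 0) of each of the 10 genes in every library, by group; the symbol gives the replicate, and the horizontal bar with whiskers is the group mean ± SD (n = 3). Umod and Slc12a1 are lowest in busulfan replicate 3 (375 and 69.5 FPKM), while Wnk1 lies between 40.4 and 56.0 FPKM in all libraries.

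Umod lies on chromosome 7 (119462708 to 119479262, minus strand) and encodes uromodulin, the protein that thick limb cells release into urine. Its level was 1005, 1125 and 725 FPKM in control replicates 1, 2 and 3, and 1086, 1371 and 940 FPKM with AOS. With busulfan it was 1198, 635 and 375 FPKM, and with busulfan plus AOS 1457, 1318 and 793 FPKM. The busulfan group held a library above every control library and also the lowest library of all, so the groups overlapped. Fold changes come from edgeR's quasi-likelihood test on the counts of all 12 libraries, with p-values adjusted by the Benjamini-Hochberg method over 14428 genes and a threshold of 0.05. Busulfan against control gave a log2 fold change of -0.41 ± 0.38 (SE) for Umod, with an adjusted p of 0.748. The average AOS effect, taken over both AOS comparisons with 6 libraries against 6, was 0.45 ± 0.27 for Umod (adjusted p = 0.876). Umod was higher in busulfan plus AOS than in busulfan by 0.69 ± 0.38, with a 95% interval from -0.16 to 1.54 (adjusted p = 0.627). Single libraries moved these values. Without busulfan replicate 3 the Umod estimates were -0.07 in busulfan against control, and 0.35 in busulfan plus AOS against busulfan. Without busulfan replicate 1 they were -0.99 and 1.27, and the average AOS effect on Umod was 0.74. In whole tissue, fewer cells of a type and less RNA per cell cannot be told apart.

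Slc12a1 lies on chromosome 2 (125152510 to 125230002, plus strand). NKCC2 transcripts stood at 152, 220 and 124 FPKM in control replicates 1, 2 and 3 and at 218, 293 and 201 FPKM with AOS. They stood at 249, 103 and 69.5 FPKM with busulfan and at 263, 234 and 137 FPKM with busulfan plus AOS. As with Umod, replicate 1 was the highest library of the busulfan group and replicates 2 and 3 were below every control library. The log2 fold change was -0.27 ± 0.43 for busulfan against control (adjusted p = 0.868) and 0.48 ± 0.43 for AOS against control (adjusted p = 1). The average busulfan effect on Slc12a1 was -0.21 ± 0.31, with an interval from -0.89 to 0.46, and it was 0.06 ± 0.24 without the adrenal and hepatocyte libraries. For Umod the same values were -0.16 ± 0.27 and 0.10 ± 0.19. Both sets of estimates lie within 1 SE of 0, on either side of it, so no direction is given. Without busulfan replicate 1 busulfan against control stood at -1.01 ± 0.32 for Slc12a1 (adjusted p = 0.149), and without busulfan replicate 3 at 0.08 ± 0.38. For AOS the average effect on Slc12a1 was 0.53 ± 0.31 (interval from -0.15 to 1.21, adjusted p = 0.874) and 0.47 ± 0.25 without the adrenal and hepatocyte libraries. It was 0.90 without busulfan replicate 1 and 0.36 without busulfan replicate 3.

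Kcnj1, which encodes ROMK, lies on chromosome 9 (32372418 to 32399197, plus strand). Its level was 65.3, 72.9 and 60.9 FPKM in control, 76.3, 88.4 and 82.7 FPKM with AOS, 83.2, 59.0 and 53.2 FPKM with busulfan, and 91.5, 73.9 and 50.8 FPKM with both, in the order of the replicates. All AOS libraries were above all control libraries, while the busulfan groups spread across both. The log2 fold change of AOS against control was 0.26 ± 0.21 for Kcnj1 (adjusted p = 1). The average AOS effect on it was 0.21 ± 0.15 and the average busulfan effect -0.13 ± 0.15, or 0.04 ± 0.11 without the adrenal and hepatocyte libraries. Leaving out 1 library at a time, the average AOS effect on Kcnj1 was lowest without busulfan plus AOS replicate 1, at 0.12, and highest without busulfan replicate 1, at 0.34.

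Cldn10 lies on chromosome 14 (118787871 to 118874525, plus strand). Its control libraries were close together, at 315, 321 and 319 FPKM, and its AOS libraries stood at 302, 327 and 319 FPKM. With busulfan the level was 312, 214 and 218 FPKM, and with busulfan plus AOS 313, 249 and 201 FPKM. Every busulfan library was below every control library, although busulfan replicate 1 was lower by little. Busulfan against control gave -0.42 ± 0.16 for Cldn10, with a 95% interval from -0.77 to -0.07. The unadjusted p was 0.0229 and the adjusted p 0.435, so the difference did not pass the threshold. The average busulfan effect on Cldn10 was -0.36 ± 0.11 (adjusted p = 0.311), and -0.25 ± 0.10 without the adrenal and hepatocyte libraries (adjusted p = 0.525). Without busulfan replicate 1, Cldn10 passed the threshold at -0.64 ± 0.13 against control (adjusted p = 0.0472) and at -0.47 ± 0.08 on average (adjusted p = 0.0359). Calls over all genes rose in that setting, to 195 and 163 of 14703, from 6 and 28 of 14428 with all libraries. The busulfan group then held replicates 2 and 3, both with adipose transcripts and replicate 3 with adrenal ones. The average AOS effect on Cldn10 was -0.02 ± 0.11, with an interval from -0.27 to 0.23.

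Cldn16 lies on chromosome 16 (26463135 to 26482765, plus strand) and encodes claudin-16, which forms a route between thick limb cells for magnesium and calcium. It was the lowest of the 10 genes, with 67 to 141 reads per library. Its level was 6.65, 5.74 and 5.74 FPKM in control, 6.01, 6.54 and 6.07 FPKM with AOS, 7.95, 5.1 and 4.2 FPKM with busulfan, and 9.05, 9.79 and 7.32 FPKM with busulfan plus AOS. The libraries given both agents were all above the AOS libraries, while busulfan replicate 1 was above busulfan plus AOS replicate 3. Cldn16 was higher in busulfan plus AOS than in busulfan by 0.62 ± 0.23 (unadjusted p = 0.0223, adjusted p = 0.517) and than in AOS by 0.51 ± 0.23 (adjusted p = 0.544). The interaction, the difference between the effects of AOS with and without busulfan, was 0.63 ± 0.33 for Cldn16, with an interval from -0.09 to 1.36 (adjusted p = 0.794).

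Slc12a3 lies on chromosome 8 (94329109 to 94366222, plus strand). NCC transcripts stood at 154, 108 and 139 FPKM in control, 140, 150 and 185 FPKM with AOS, 110, 137 and 160 FPKM with busulfan, and 138, 163 and 149 FPKM with both. The groups overlapped in each comparison. In FPKM busulfan replicate 1, the group's highest library for Slc12a1, was its lowest for Slc12a3, and busulfan replicate 3 was the reverse. The average busulfan effect on Slc12a3 was -0.13 ± 0.12 (interval from -0.39 to 0.13, adjusted p = 0.661). Its average AOS effect was 0.22 ± 0.12 (interval from -0.04 to 0.49, adjusted p = 0.862).

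Wnk1 lies on chromosome 6 (119923969 to 120038695, minus strand) and Wnk4 on chromosome 11 (101260537 to 101277409, plus strand). In the distal convoluted tubule a short kidney form of Wnk1 without the kinase domain is known, and the gene counts do not separate it from the full-length form. Wnk1 stood at 45.2, 40.4 and 45.1 FPKM in control, 45.4, 47.9 and 56.0 FPKM with AOS, 40.7, 46.8 and 51.8 FPKM with busulfan, and 52.9, 50.1 and 46.9 FPKM with both. In FPKM each AOS library was above each control library, though the nearest pair stood at 45.4 and 45.2 FPKM. In CPM scaled by trimmed means of M values (normalized CPM) those groups overlapped, and the libraries given both agents were instead all above the busulfan libraries. The average busulfan effect on Wnk1 was 0.01 ± 0.06, and its interval from -0.13 to 0.16 was the narrowest among the 10 genes. AOS gave an average effect on Wnk1 of 0.12 ± 0.06 (adjusted p = 0.867).

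Wnk4, in which mutations raise blood pressure and potassium in familial hyperkalaemic hypertension, stood at 35.2, 27.3 and 26.8 FPKM in control and 30.8, 35.7 and 34.3 FPKM with AOS. It stood at 26.9, 29.8 and 23.3 FPKM with busulfan and 31.5, 36.3 and 27.4 FPKM with both. Its lowest library was busulfan replicate 3, and the groups overlapped. The average AOS effect on Wnk4 was 0.20 ± 0.10 (adjusted p = 0.851) and the average busulfan effect -0.14 ± 0.10 (adjusted p = 0.583). Without the adrenal and hepatocyte libraries the latter was -0.05 ± 0.09.

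Stk39 lies on chromosome 2 (68210445 to 68472108, minus strand). Its level was 12.9, 14.1 and 11.2 FPKM in control, 14.6, 15.4 and 13.5 FPKM with AOS, 13.2, 9.92 and 17.9 FPKM with busulfan, and 17.2, 13.6 and 10.0 FPKM with both. The highest level of Stk39 was thus in busulfan replicate 3, the library with adrenal transcripts. In FPKM, Umod, Slc12a1, Cldn16, Wnk4 and Egf were at their lowest there, and in normalized CPM Kcnj1 and Cldn10 were too. The average AOS effect on Stk39 was 0.09 ± 0.13 with all libraries and 0.27 ± 0.10 without the adrenal and hepatocyte libraries (unadjusted p = 0.0197, adjusted p = 0.508). The average busulfan effect was -0.01 ± 0.13 and -0.02 ± 0.10 in the same order.

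Egf lies on chromosome 3 (129677574 to 129755322, minus strand). It encodes the precursor of epidermal growth factor, made in the thick limb and the distal convoluted tubule, where the factor promotes magnesium uptake. Its level was 365, 301 and 290 FPKM in control, 340, 405 and 371 FPKM with AOS, 337, 245 and 243 FPKM with busulfan, and 425, 347 and 306 FPKM with both. The busulfan library of replicate 1 was again the highest of its group, and it was above a busulfan plus AOS library. Egf was higher with AOS on average by 0.32 ± 0.11, with an interval from 0.09 to 0.56, but the adjusted p was 0.851 (unadjusted 0.0116). In busulfan plus AOS against busulfan it was higher by 0.44 ± 0.15 (adjusted p = 0.477), and in AOS against control by 0.21 ± 0.15 (adjusted p = 1).

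None of the 10 genes was called in any of the 7 comparisons over all 12 libraries, by edgeR or by DESeq2. Calls were also rare over all genes. Of 14428 genes, busulfan against control called 0.0416%, and busulfan plus AOS against AOS called 0.0693%. It was 0% for AOS against control, 0% for busulfan plus AOS against busulfan, 0.194% for the average busulfan effect, 0% for the average AOS effect and 0% for the interaction. At an unadjusted p under 0.05 there was 1 of the 10 genes for busulfan against control (10.1% of all genes), 0 for busulfan plus AOS against AOS (9.16%) and 0 for AOS against control (3.59%). There were 2 for busulfan plus AOS against busulfan (8.69%), 1 for the average busulfan effect (12.1%), 1 for the average AOS effect (5.77%) and 0 for the interaction (5.89%).

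Groups without overlap in normalized CPM gave similar counts. Cldn10 was the 1 gene lower in every busulfan library than in every control library, against 11.4% of all genes without overlap in either direction. Cldn16 was the 1 gene higher in every busulfan plus AOS library than in every AOS library (17.2% of all genes). Kcnj1 was higher and Cldn10 lower in every AOS library than in every control library (12.9%), although Cldn10 overlapped in FPKM. Wnk1 was higher in every busulfan plus AOS library than in every busulfan library (8.39%), although these groups overlapped in FPKM.

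By direction alone, 9 of the 10 estimates of the average AOS effect were above 0, with a median of 0.22 on the log2 scale against -0.0085 over all genes tested. In busulfan plus AOS against busulfan 10 of 10 were above 0, with a median of 0.24 against -0.0104. That count was 7 without busulfan plus AOS replicate 1, 9 without busulfan plus AOS replicate 2, and 8 without either busulfan replicate 2 or busulfan replicate 3. AOS against control had 8 of 10 above 0 and a median of 0.18 against 0.004. The average busulfan effect had 2 of 10 above 0 and a median of -0.13 against -0.0012. Busulfan against control had 2 of 10 and -0.17 against -0.0047, and for busulfan plus AOS against AOS the values were 3 of 10 and -0.07 against 0.0049. Over all alternatives the counts ran from 9 to 10 for the average AOS effect, from 8 to 9 for AOS against control, from 1 to 5 for the average busulfan effect, from 1 to 3 for busulfan against control, and from 1 to 6 for busulfan plus AOS against AOS. The interaction had 6 of 10 above 0, with a median of 0.12 against -0.0104. These comparisons share libraries, and the 10 genes share libraries and cell types, so the counts are a description of where the estimates lie and give no gene a direction.

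**Figure D2:**
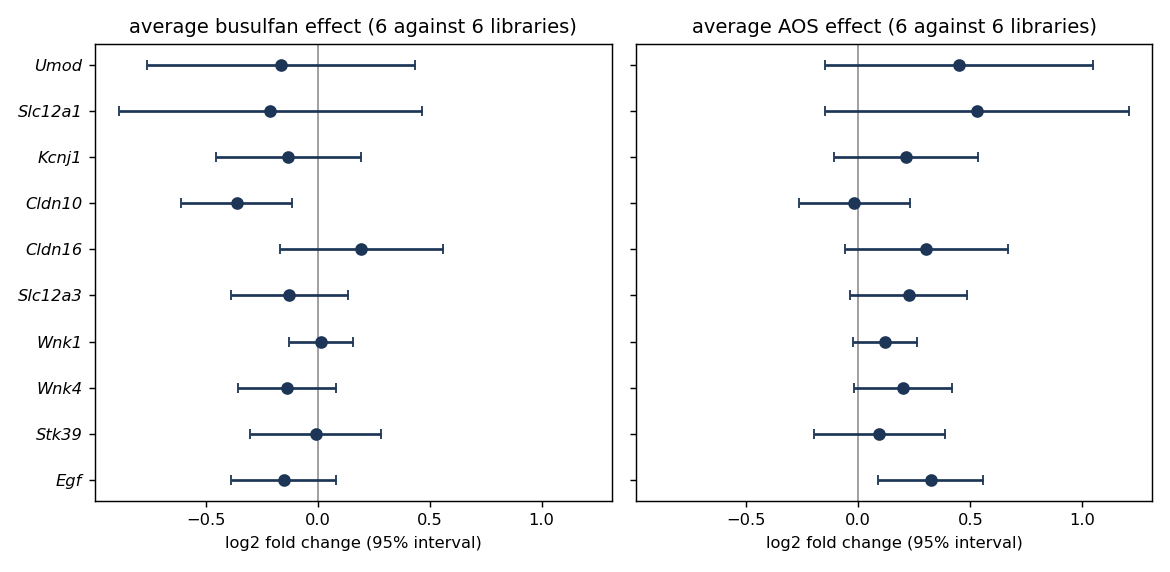
Average busulfan effect (left) and average AOS effect (right) on each of the 10 genes as log2 fold change (horizontal axis), each from 6 libraries against 6. Points are edgeR estimates, and bars are 95% intervals worked back from the F statistics. The interval leaves out 0 for Cldn10 on the left (-0.36) and for Egf on the right (0.32), and is widest for Slc12a1.

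Across the 12 libraries Umod, Slc12a1 and Kcnj1 varied together. Correlations were computed for all 45 pairs on log2 normalized CPM, with permutation tests of 100000 resamples and Benjamini-Hochberg adjustment over the 45. Umod and Slc12a1 gave Pearson's r = 0.97 and Spearman's rho = 0.98, each with p = 1e-05, the smallest these resamples can give (adjusted p = 0.00045). Without the 2 libraries farthest from the median of Umod r was 0.92, and on deviations from the group means it was 0.98. Slc12a1 and Kcnj1 gave r = 0.91 and rho = 0.90 (permutation p = 5e-05 and 0.0002, adjusted p = 0.00113 and 0.0045), with r = 0.87 without the farthest 2 libraries. Umod and Kcnj1 gave r = 0.86 and rho = 0.85 (permutation p = 0.00028 and 0.00079, adjusted p = 0.0042 and 0.0119), with 0.76 without them. The order of the libraries was thus nearly the same for the cotransporter, the potassium channel and the urinary protein.

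Egf gave r = 0.85 and rho = 0.74 with Umod (permutation p = 0.00041 and 0.00804, adjusted p = 0.00461 and 0.0636), and r was 0.57 without the 2 libraries farthest in Umod. Cldn16 gave r = 0.81 and rho = 0.71 with Umod (permutation p = 0.00146 and 0.0115, adjusted p = 0.011 and 0.0645), and r was 0.49 without those 2, so that relation rests on them in part. On deviations from the group means r with Umod was 0.78 for Egf and 0.90 for Cldn16. Cldn10 gave r = 0.61 and rho = 0.27 with Umod (permutation p = 0.0259 and 0.387, adjusted p = 0.0776 and 0.601), and r was 0.061 without the 2 farthest libraries. With Slc12a1 Cldn10 gave r = 0.63 and rho = 0.29 (permutation p = 0.024 and 0.351, adjusted p = 0.0771 and 0.564), and r was 0.14 without the 2 farthest. Cldn10 and Kcnj1 gave r = 0.73 and rho = 0.40 (permutation p = 0.00825 and 0.199, adjusted p = 0.0327 and 0.431). That r was 0.39 without the 2 libraries farthest in Kcnj1. On deviations from the group means Cldn10 gave r = 0.79 with Umod, 0.82 with Slc12a1 and 0.93 with Kcnj1. In all, 35 of the 45 values of Pearson's r were positive, 6 exceeded 0.8, and 12 had an adjusted permutation p under 0.05. By Spearman's rho only the pairs among Umod, Slc12a1 and Kcnj1 had an adjusted permutation p under 0.05.

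The distal convoluted tubule cotransporter stood outside this set. Slc12a3 gave r = -0.09 with Slc12a1 (permutation p = 0.773) and r = -0.64 on deviations from the group means. With Wnk1 Slc12a3 gave r = 0.72 and rho = 0.58 (permutation p = 0.00871 and 0.0512, adjusted p = 0.0327 and 0.192). That r was 0.34 without the 2 libraries farthest in Slc12a3 and so rests on them in part. It was 0.67 on deviations from the group means and 0.73 without the adrenal and hepatocyte libraries. Stk39 gave r = 0.27 with Slc12a1 over 12 libraries (permutation p = 0.397) and r = 0.93 without the adrenal and hepatocyte libraries.

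**Figure D3:**
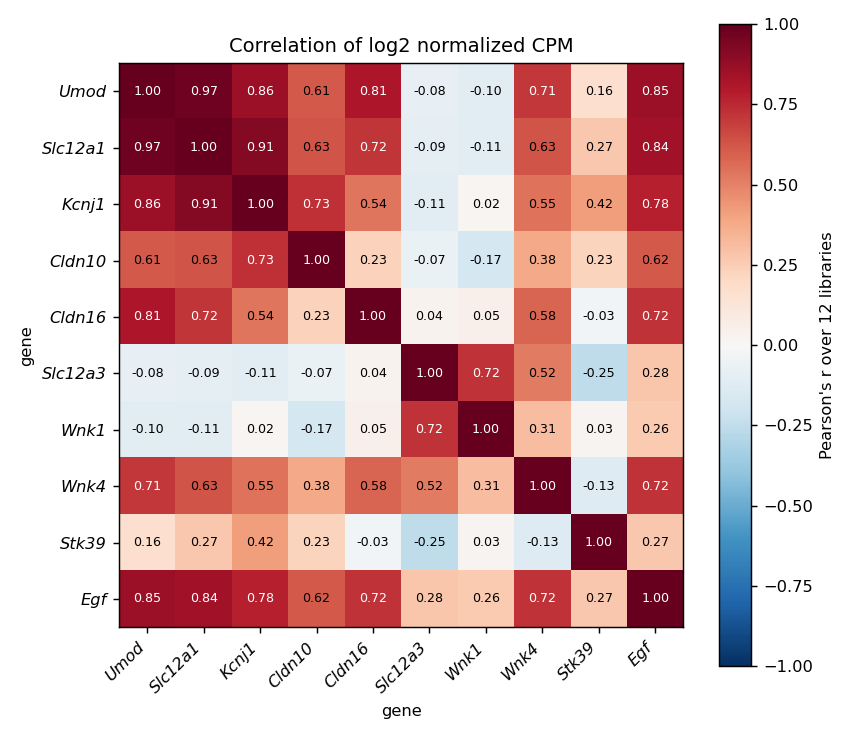
Pearson's r of log2 normalized CPM over the 12 libraries for each pair of the 10 genes (colour scale from -1 to 1, values printed in the cells). Umod, Slc12a1 and Kcnj1 form a block between 0.86 and 0.97, and Slc12a3 and Wnk1 lie near 0 with that block.

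The ratio of Slc12a3 to Slc12a1 within a library does not depend on scaling. In FPKM it was 1.01, 0.49 and 1.13 in control, 0.64, 0.51 and 0.92 with AOS, 0.44, 1.33 and 2.30 with busulfan, and 0.52, 0.70 and 1.09 with both. The busulfan group held both the lowest and the highest ratio of the 12 libraries. The log2 ratio was higher with busulfan than without by 0.28 (exact permutation test, two-sided, p = 0.505) and its difference with AOS was -0.44 (exact p = 0.325), and the busulfan value was -0.13 without the adrenal and hepatocyte libraries (exact p = 0.73). Without busulfan replicate 3 the AOS value was -0.18 (exact p = 0.645). Without busulfan replicate 1 the busulfan value was 0.61 (exact p = 0.14). The ratio of Umod to Slc12a1 stayed between 4.67 and 6.61, with a log2 difference of 0.07 for busulfan (exact p = 0.45) and -0.11 for AOS (exact p = 0.245). The ratio of Wnk4 to Wnk1 ran from 0.45 in busulfan replicate 3 to 0.78 in control replicate 1. Its log2 differences were -0.17 for busulfan (exact p = 0.2) and 0.07 for AOS (exact p = 0.6). The adjusted p was 0.6 for each of these 6 tests, whose smallest possible p is 0.005.

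The genes most alike were searched for by Pearson's r of log2 normalized CPM over the 12 libraries, among 9486 genes with a mean of at least 10 CPM and no library at 0. The r values here chose the genes and carry no test. For Umod they were Irx1, an Iroquois homeobox factor (0.98), Ppp1r1b, Tmem207, Wfdc15b and Paqr5. For Slc12a1 they were Apela, a peptide ligand of the apelin receptor (0.99), Scin, Ppp1r1b, Slc14a2 (0.98) and a gene model known only as BGIG10090_47898. Slc14a2 encodes urea transporters of the thin limb and the inner medullary collecting duct. Its normalized CPM was 5.6, 27.9 and 3.0 in control, 27.3, 43.8 and 21.5 with AOS, 24.2, 2.5 and 0.36 with busulfan, and 34.4, 26.4 and 3.6 with both. It was thus high and low in the same libraries as Slc12a1. The 7 thin limb markers, of which Slc14a2 is 1 and Aqp1, also a proximal tubule gene, the highest, summed to 644 to 911 CPM in control, 835 to 946 CPM with AOS, 550 to 884 CPM with busulfan and 668 to 943 CPM with both. The part of the sampled kidney region in the Umod and Slc12a1 levels was not tested.

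**Figure D4:**
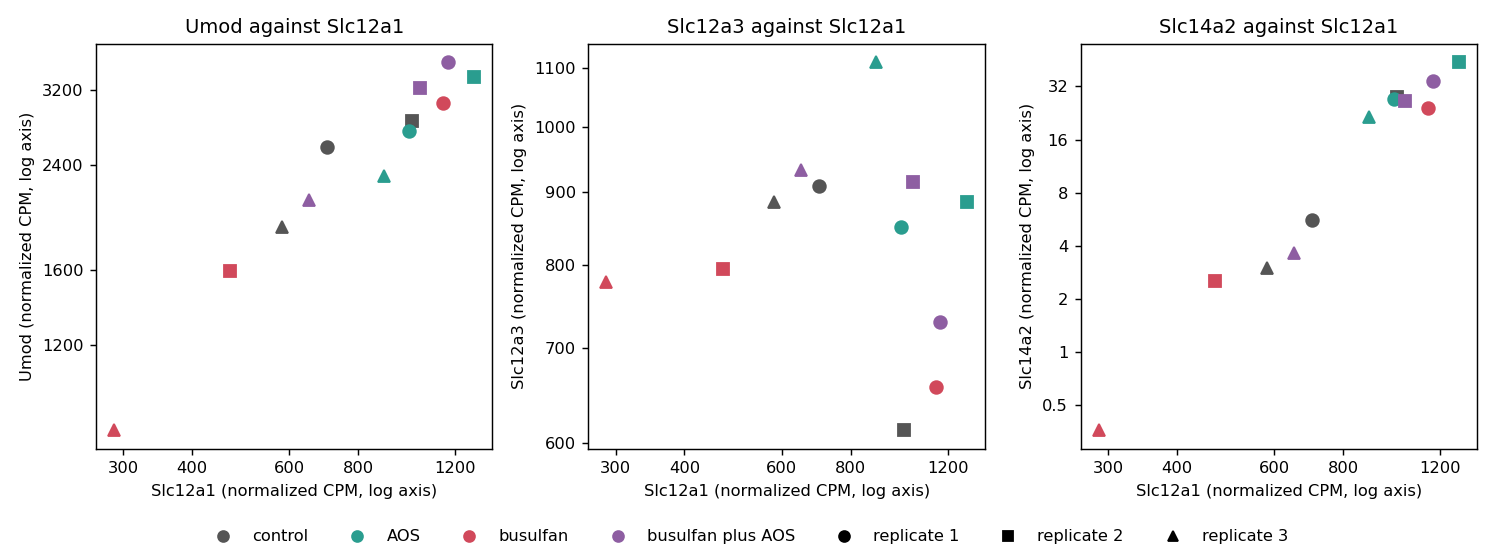
Normalized CPM of Umod, Slc12a3 and Slc14a2 (vertical axes) against Slc12a1 (horizontal axis), all on log axes, with 1 point per library; colours give the group and symbols the replicate. Umod and Slc14a2 climb with Slc12a1 (r = 0.97 and 0.98), and Slc12a3 does not (r = -0.09). Slc14a2 was chosen by its r, which therefore carries no test.

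For Egf the most alike genes were Tfap2b (0.96), a transcription factor of the distal nephron, Aif1l, Sostdc1, Paqr5 and Dzip1l. Slc12a3 had no partner above 0.91, its most alike being BGIG10090_38988, Rreb1, Rcbtb1, Zfp384 and Card10. For Wnk1 they were Fggy (0.89), Sirpa, Akr1c19, Zbtb43 and Ramp2. Paqr5 and Ppp1r1b each stood on a pair of these lists.

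Other genes of the same pathways were read from 7 lists, and edgeR called 0 of their measured genes in any of the 7 comparisons. Over all genes tested the median was -0.0085 for the average AOS effect and -0.0012 for the average busulfan effect. Of 16 thick limb transport partners, 15 had an average AOS effect above 0, with a median of 0.25, and 3 an unadjusted p under 0.05 (5.77% of all genes). The 2 comparisons in that average differed. The partners' median was 0.06 in AOS against control (12 of 16 above 0) and 0.36 in busulfan plus AOS against busulfan (15 of 16). Their summed level was lowest in busulfan replicate 3, at 8951 CPM, and the part of that library was not tested. Their average busulfan effect was above 0 for 5 of 16, with a median of -0.04. The highest was Fxyd2, a regulatory subunit of the sodium pump, with a mean level of 3425 FPKM and an average AOS effect of -0.02 ± 0.10. All 7 thick limb transcription factors had an average AOS effect above 0, with a median of 0.22, and 3 of 7 an average busulfan effect above 0. Their median was 0.08 in AOS against control and 0.36 in busulfan plus AOS against busulfan. Pou3f3, a POU factor of the loop of Henle, had a mean level of 14.1 FPKM and an average AOS effect of 0.31 ± 0.26.

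Of 13 distal convoluted tubule partners, 9 had an average AOS effect above 0 (median 0.10) and 4 an average busulfan effect above 0 (median -0.08). The highest were Kl, the co-receptor for the hormone FGF23, at 204 FPKM, and Calb1, the calcium buffer calbindin, at 180 FPKM. Their average AOS effects were 0.07 ± 0.06 for Kl and 0.05 ± 0.16 for Calb1. Among 14 regulators of the WNK and SPAK kinases 8 were above 0 with AOS (median 0.01) and 4 with busulfan (median -0.03). The highest value listed was that of Wnk3, whose counts were whole, within 0.005, in 1 of 12 libraries and whose level is uncertain. Ppp1ca, a catalytic subunit of protein phosphatase 1, was at 91.7 FPKM, and its average effects were -0.02 ± 0.10 for AOS and -0.15 ± 0.10 for busulfan.

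Of 7 relatives of both cotransporters 6 were tested, and the highest, the potassium chloride cotransporter gene Slc12a7, stood at 30.6 FPKM. Its average AOS effect was 0.18 ± 0.07 (unadjusted p = 0.0293, adjusted p = 0.851). Of 10 genes of the EGF family and its receptors 8 were tested, and 7 of these were above 0 with AOS (median 0.18). The receptor genes Egfr and Erbb3 were the highest of them, at 15.6 and 11.96 FPKM, against 331 FPKM for Egf itself. Of 6 genes tied to uromodulin 5 were measured, led by the proteases Hpn, which cuts uromodulin free of the membrane, and Prss8, at 232 and 189 FPKM. Hpn had an average AOS effect of 0.02 ± 0.10 and Prss8 of 0.13 ± 0.11.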

How the data were processed

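RNA-seq of mouse kidney was analysed in 12 libraries, grouped by the sample titles and the series' design text. The authors deposited 1 table with an estimated count per gene and library and beside it an expression value, taken here as FPKM from its scale. Reads were placed on mm10, per the submitters' processing notes, while for the aligner and counter the sources used here give no name. Counts of the 10 genes were whole, within 0.005, in 12 of 12 libraries. The table names no strandedness, so overlapping and antisense genes are uncertain. The 8 columns of group means were not used. Positions and promoters of all 10 genes come from RefSeq on GRCm38.p6, with positions matched by gene ID and promoters by gene symbol.

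Rounded counts entered the quasi-likelihood test of edgeR 4.0.16 (R 4.3.3), with scaling by trimmed means of M values and the tool's own expression filter. Each group had 1 mean (8 residual degrees of freedom), and comparisons were contrasts over all 12 libraries. Adjusted p-values and the threshold of 0.05 apply over 14428 genes. The procedure was tested on simulated data. Marker sums are CPM scaled by the library total. Library totals give a limit of 0.196 to 0.216 CPM for a count of 0, for counting error only. Alternatives were DESeq2 1.42.0, limma 3.58.1 on voom values with quality weights or on log2(FPKM + 1) and log2(FPKM + 0.1), other scalings and filters, a replicate block, the compared groups alone, and libraries left out. Permutation tests were run in Python 3.11.15, with ranks and their Benjamini-Hochberg adjustment from scipy 1.17.1. Replicate numbers were not taken to pair the samples. Same-numbered libraries had correlations of deviations from -0.30 to 0.20 (18 pairs, median 0.03). Libraries of other numbers had correlations from -0.31 to 0.43 (36 pairs, median -0.02). These values cannot show whether the samples were paired. No pair of libraries was alike to within counting error, as the lowest ratio of pairwise spread to sampling variance was 2.32. That ratio cannot show whether libraries share an animal.

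The 10 genes, the 7 pathway lists and the 14 marker lists were chosen with earlier results of these data known. Named are the 10 genes, the 2 highest members of each pathway list by mean FPKM, and the 5 most alike genes for Umod, Slc12a1, Slc12a3, Wnk1 and Egf. Irx1, Tfap2b and Slc14a2 also belong to lists, and Star was named outside the rule. Some genes that the rule selects are not reported here.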

Additional observations from a re-analysis of the deposited data

How the results depend on the processing

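Over 24 alternative settings, 1648 of 1650 values of the 10 genes kept their side of the threshold, and 89 changed sign, each from an estimate within 1 SE of 0. Leaving out 1 library at a time gave 0 to 1 genes called for busulfan against control and 0 to 1 for the average busulfan effect. The 1 was Cldn10 without busulfan replicate 1, at -0.64 and -0.47. In that setting 195 and 163 of 14703 genes were called, and the cause was not tested. The log2 ratio of Slc12a3 to Slc12a1 with busulfan turned from 0.28 to -0.13 without the adrenal and hepatocyte libraries. The Wnk4 to Wnk1 ratio with AOS ran from -0.021, without busulfan replicate 3, to 0.12 with 1 library left out. With a replicate block its busulfan value was -0.17 at an unadjusted exact p of 0.0312, from sign flips of the differences between same-numbered libraries. That is the smallest p the sign flips can give. Without the block another test, the exact permutation of treatment labels, gave p = 0.2. Whether the replicate numbers pair the samples is not known. Calls over all genes ranged from 0 to 195 for busulfan against control, 1 to 89 for busulfan plus AOS against AOS, 0 to 10 for AOS against control and 0 to 26 for busulfan plus AOS against busulfan. They ranged from 18 to 223 for the average busulfan effect, 0 to 21 for the average AOS effect and 0 to 11 for the interaction, where the highest counts came from DESeq2 or from leaving out a library. Cldn16 rests on 67 to 141 reads a library, the fewest of the 10 genes.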

Other observations

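Markers of the segments after the distal convoluted tubule were also above 0 in their estimates of the average AOS effect, 9 of 9 for principal cells (median 0.23) and 8 of 8 for intercalated cells (median 0.27), with 0 called by edgeR and 1 and 3 at an unadjusted p under 0.05 (5.77% of all genes). Of 15 proximal tubule markers 4 were above 0 (median -0.04). Of the 7 thin limb markers 6 were above 0 (median 0.74), with 0 called and 1 at an unadjusted p under 0.05. For the average busulfan effect the principal cell markers were above 0 for 3 of 9 and the intercalated cell markers for 1 of 8. All 10 fibroblast and smooth muscle markers had an average busulfan effect above 0 (median 0.95) and an unadjusted p under 0.05 (12.1% of all genes), with 0 called. Their sums were 147, 358 and 701 CPM in busulfan replicates 1, 2 and 3, and Umod and Slc12a1 were lowest in replicates 2 and 3 of that group. In the other groups the sums were 123 to 198 CPM in control, 160 to 187 CPM with AOS and 263 to 282 CPM with both agents. Busulfan plus AOS replicate 1, where Umod was highest, had 282 CPM. All 10 markers of tubular injury also had an average busulfan effect above 0 (median 0.49), 5 of them at an unadjusted p under 0.05, with 0 called. They summed to 688 to 821 CPM in control, 792 to 889 CPM with AOS, 912 to 1162 CPM with busulfan and 976 to 1041 CPM with both. Their part in the levels of the salt transport genes was not tested.

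Wnk3 was listed at a mean of 332 FPKM from a mean of 2114 reads, so that the deposited FPKM corresponds to a length of 443 bases, against 9320 bases for Wnk1. The counts of Wnk3 were whole, within 0.005, in 1 of 12 libraries, and its level is uncertain.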
